A study of Mus musculus with 12 samples.

Results

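The 9 genes described here are the 6 Dlx genes (Dlx1 to Dlx6) and 3 genes that make or load the transmitter GABA (Gad1, Gad2 and Slc32a1). They were chosen by symbol in promoter tables of 55385 windows, all but 2 of them 2 kb long and centred on an annotated gene start, and each of the 9 symbols has 1 window. The tissue is E12.5 mouse forebrain (C57BL/6, untreated), either wild type or of the genotype EedcKO, an Eed mutant by its name. The sources used here do not give the Cre line behind EedcKO, the cells it acts in or the number of embryos per library. Each genotype has 6 libraries: crosslinked ChIP for Eed with its input, and CUT&Tag, in which an antibody-bound transposase cuts and tags DNA, for H3K27me3, H3K27ac, RNA polymerase II (RNA-Pol2) and IgG. Each combination of genotype and target is 1 library, so differences below rest on single libraries and carry no p-value. Intervals are exact 95% intervals for the number of reads and cover counting error only.

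Dlx genes encode homeodomain transcription factors and lie in the genome as 3 convergent pairs. Dlx1, Dlx2, Dlx5 and Dlx6 are the members known from the ganglionic eminences of the ventral forebrain, where they promote the GABA neuron fate and the migration of interneurons. Dlx3 and Dlx4 are known mainly from the branchial arches, the limb, the skin and the placenta. Gad1 and Gad2 encode the glutamate decarboxylases that make GABA, and Slc32a1 encodes the transporter that loads it into synaptic vesicles. Eed belongs to the core of PRC2, the Polycomb complex that places H3K27me3 on CpG-rich promoters of silent developmental genes. H3K27ac sits on the same lysine and marks active promoters and enhancers. A forebrain dissection holds dorsal cells, in which the ventral genes are silent, beside ventral cells, in which they are transcribed. In such bulk tissue, fewer cells with a mark and less of the mark per cell cannot be told apart.

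Of the 9 genes, 5 have a promoter sequence in the RefSeq table used here (GRCm38.p6, the sequence of mm10): Dlx1, Dlx2, Gad1, Gad2 and Slc32a1. The 4 shown are those in which the position of the start relative to the deposited window bears on the counts. Dlx1 and Gad1 start outside their windows, while Dlx2 and Gad2 start inside them. Each runs 5′ to 3′ on the gene's strand from 250 bases before to 50 bases after the start, with CG dinucleotides in capitals: chr2:71529195-71529494 on the plus strand for Dlx1, chr2:71546705-71547004 on the minus strand for Dlx2, chr2:70561879-70562178 on the plus strand for Gad1, and chr2:22622077-22622376 on the plus strand for Gad2.
Dlx1: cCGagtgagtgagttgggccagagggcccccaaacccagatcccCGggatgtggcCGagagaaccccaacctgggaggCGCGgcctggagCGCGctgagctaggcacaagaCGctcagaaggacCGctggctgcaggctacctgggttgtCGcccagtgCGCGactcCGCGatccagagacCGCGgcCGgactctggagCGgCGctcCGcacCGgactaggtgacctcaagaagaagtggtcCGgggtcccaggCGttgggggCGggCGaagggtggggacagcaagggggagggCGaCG
Dlx2: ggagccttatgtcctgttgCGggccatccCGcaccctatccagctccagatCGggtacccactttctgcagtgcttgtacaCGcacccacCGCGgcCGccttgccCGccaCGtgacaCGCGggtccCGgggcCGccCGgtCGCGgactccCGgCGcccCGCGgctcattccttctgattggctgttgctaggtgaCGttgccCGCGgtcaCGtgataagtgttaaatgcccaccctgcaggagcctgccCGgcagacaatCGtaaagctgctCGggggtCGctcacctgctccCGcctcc
Gad1: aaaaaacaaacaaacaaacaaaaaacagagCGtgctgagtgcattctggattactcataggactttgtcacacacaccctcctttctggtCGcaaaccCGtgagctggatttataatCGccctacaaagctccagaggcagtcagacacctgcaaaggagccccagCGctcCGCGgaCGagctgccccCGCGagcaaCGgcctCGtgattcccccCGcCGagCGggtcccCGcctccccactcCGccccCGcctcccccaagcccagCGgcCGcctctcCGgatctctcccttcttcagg
Gad2: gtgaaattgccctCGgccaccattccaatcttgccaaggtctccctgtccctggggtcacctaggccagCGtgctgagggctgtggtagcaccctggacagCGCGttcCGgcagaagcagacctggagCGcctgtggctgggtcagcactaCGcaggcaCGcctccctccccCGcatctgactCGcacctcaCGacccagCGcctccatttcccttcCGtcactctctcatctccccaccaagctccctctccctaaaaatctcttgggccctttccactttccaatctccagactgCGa

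The 300 bases held 27 CG dinucleotides for Dlx1, 29 for Dlx2, 21 for Gad1, 14 for Gad2 and 17 for Slc32a1, against a median of 7 over the 32851 promoters in the table. All 5 members were thus above the median in CG number. The homeodomain motif TAATTA, which reads the same on both strands, was in none of the 5, and 5.29% of all promoters in the table held it. The related motif TAATTG, searched on both strands, was also in none of the 5, and 8% of all promoters held it. No match says only that these letters are not in these windows.

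The position of the start matters most for Gad1. Its RefSeq start, 2:70562129, lies 9057 bp downstream of the centre of its deposited window (mm10, 2:70552072-70554071), and the printed promoter shares 0 bases with that window. The window of the antisense transcript Gad1os (2:70562357-70564356, minus strand) begins 228 bp after the Gad1 start, so its counts are given beside those of Gad1. The RefSeq start of Dlx1, 2:71529445, lies 1332 bp downstream of the centre of its window (2:71527113-71529112), which again shares 0 bases with the printed promoter. The starts of Dlx2, Gad2 and Slc32a1 were 0, 122 and 9 bp from their window centres. The RefSeq promoter table has no entry for Dlx3, Dlx4, Dlx5 and Dlx6, so this comparison was not made for them.

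Among the 12 libraries, the labels of 2 need care at these genes. The library labelled EedcKO H3K27ac had RPKM values 1.08 to 1.30 times those of wild type H3K27me3 at all 9 members, and over the 9 members the log2 values of these 2 libraries had a Pearson r of 0.999 (0.987 over the 8 without Gad1). RPKM is used here for reads per kb of window, scaled to the total reads in all promoter windows of the library. The library labelled EedcKO H3K27me3 was between -1.22 and 0.91 relative to IgG (log2) at the members and had 671 summits in all, against 10662 for wild type H3K27me3 and 10164 for the library labelled EedcKO H3K27ac. Which target each of the 2 libraries holds cannot be settled from the files. Both readings are therefore given, the comparison as labelled and the crossed comparison, and the libraries are named by their labels throughout.

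Total reads in promoter windows ran from 948955 in EedcKO input to 3842779 in EedcKO RNA-Pol2. The median promoter had 11 reads in wild type Eed and 25 in EedcKO Eed, and between 18 and 38 in the other 10 libraries. Ratios are on the scale log2(RPKM + 0.5), less the median ratio of all tested promoters, and are called relative log2 ratios. A promoter counts as higher or lower when its relative ratio reaches 2-fold. The Eed promoter window had 121 reads in wild type Eed and 40 in EedcKO Eed, and 89 and 246 in RNA-Pol2. The labels do not say which part of Eed is deleted, so this window does not check the genotype.

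**Figure D1:**
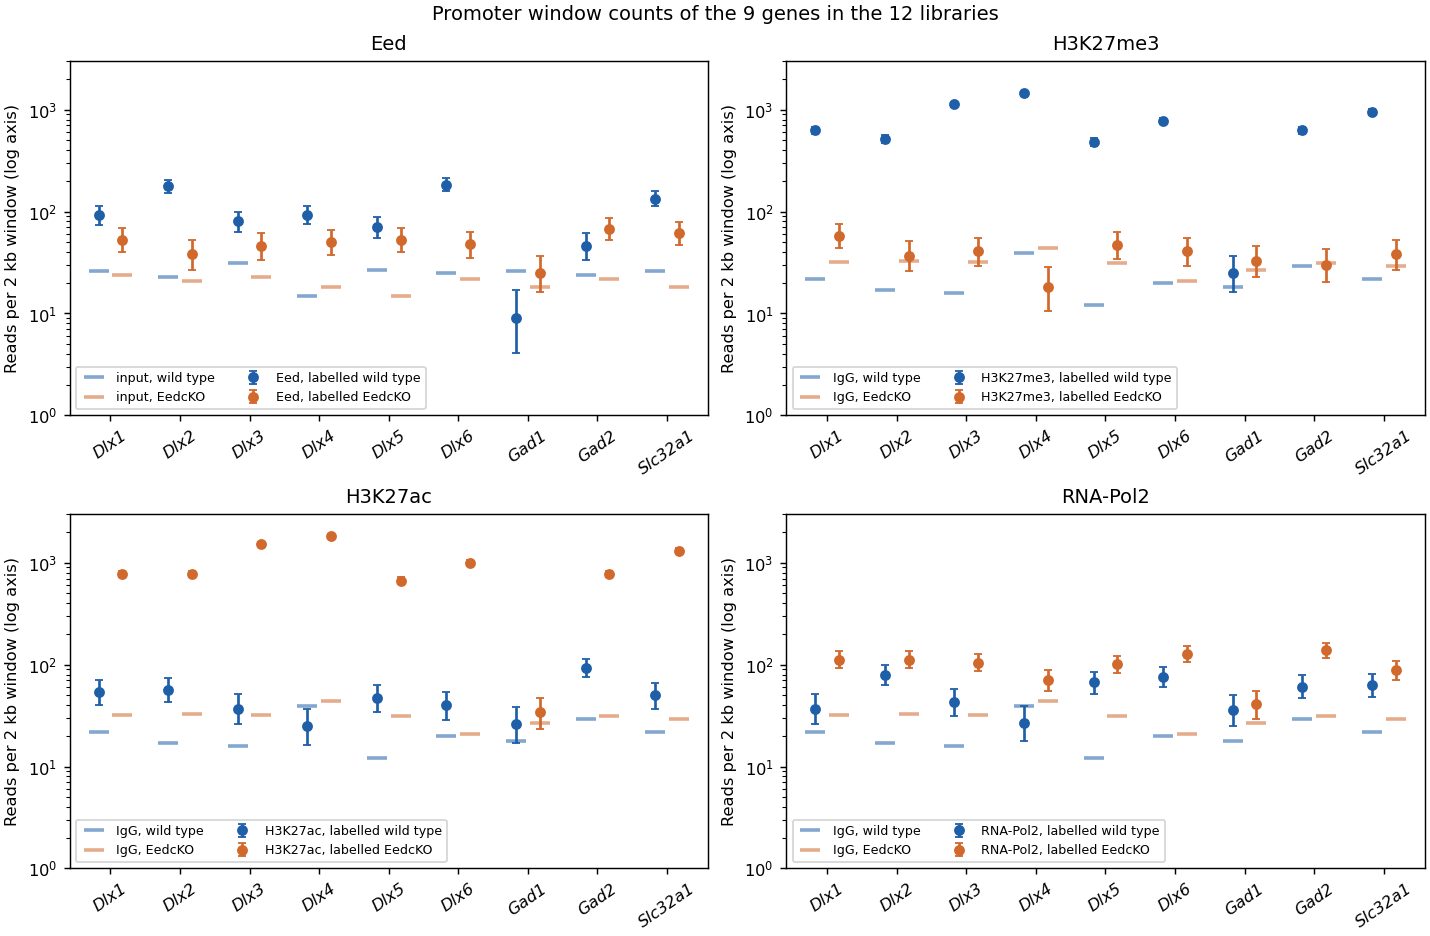
Reads per promoter window (log axis) of the 9 genes in the 12 libraries, with 1 panel per target; points are single libraries with exact 95% Poisson intervals, dashes the matching input or IgG count. In wild type H3K27me3 and in the library labelled EedcKO H3K27ac, 8 genes sit at 486 reads or more and Gad1 sits at 25 and 34.

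In wild type forebrain the Dlx1/2 pair carried much H3K27me3, clear Eed and modest H3K27ac. Dlx1 had 626 reads of H3K27me3 in its window and Dlx2 had 516, against 22 and 17 in IgG. Eed gave 92 reads at Dlx1 and 177 at Dlx2, against 26 and 23 in input. H3K27ac gave 54 and 57 reads and RNA-Pol2 gave 37 and 79. Within the pair, Dlx2 had more Eed than Dlx1 (log2 ratio of Dlx1 to Dlx2 -0.94, interval -1.32 to -0.57) and more RNA-Pol2 (-1.09, interval -1.70 to -0.51). H3K27ac of the pair did not differ beyond counting error (-0.08, interval -0.64 to 0.48). The Dlx1 window ends before the Dlx1 start of RefSeq, which touches the Eed and RNA-Pol2 comparisons: the strongest wild type Eed summit of the pair lay 11 bp from that start, outside the window.

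At the Dlx5/6 pair, too, the partners differed in Eed and H3K27me3. Dlx5 had 486 reads of H3K27me3 and Dlx6 had 779, and Eed gave 70 reads at Dlx5 and 183 at Dlx6. The log2 ratio of Dlx5 to Dlx6 was -1.39 (interval -1.81 to -0.98) in Eed and -0.68 (interval -0.85 to -0.52) in H3K27me3. H3K27ac was 47 and 40 reads and RNA-Pol2 67 and 76 reads, each pair of values within counting error.

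The Dlx3/4 pair had the most H3K27me3 of the 9 genes. Dlx4 had 1443 reads and Dlx3 had 1130. At Dlx4 the active marks were not above IgG: H3K27ac gave 25 reads and RNA-Pol2 27, where IgG gave 39. Dlx3 had 37 reads of H3K27ac and 43 of RNA-Pol2, where IgG gave 16. Eed at this pair, 80 reads at Dlx3 and 93 at Dlx4, was below that at Dlx2 and Dlx6 while H3K27me3 was above theirs.

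The GABA genes split by window position. Gad2 had 626 reads of H3K27me3 and 93 of H3K27ac, and Slc32a1 had 946 and 50. Gad2 had the highest wild type H3K27ac of the 9 genes, above Slc32a1 by 0.90 on the log2 scale (interval 0.38 to 1.42), but less Eed (46 against 134 reads). The Gad1 window had 25 reads of H3K27me3, 26 of H3K27ac, 36 of RNA-Pol2 and 9 of Eed, where IgG gave 18 and input 26. The Gad1os window, next to the RefSeq start of Gad1, had 1063 reads of H3K27me3, 68 of H3K27ac, 69 of RNA-Pol2 and 162 of Eed. Gad1os exceeded Gad1 by 5.41 in H3K27me3 (log2, interval 4.84 to 6.04), 4.17 in Eed and 1.39 in H3K27ac. These ratios take no account of the controls. Input was also higher at Gad1os, with 44 reads against 26 (0.76, interval 0.03 to 1.52), while IgG had 10 against 18. The low values of the Gad1 window thus do not hold for the 2 kb just downstream of the RefSeq start.

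Ordered by wild type H3K27me3, the genes ran Dlx4, Dlx3, Slc32a1, Dlx6, Dlx1, Gad2, Dlx2, Dlx5 and Gad1. Dlx1 and Gad2 did not differ, nor did Dlx2 and Dlx5, while every other neighbour in that order was apart beyond counting error. In wild type Eed the order was Dlx6, Dlx2, Slc32a1, Dlx4, Dlx1, Dlx3, Dlx5, Gad2 and Gad1. Dlx6 and Dlx2 did not differ beyond counting error, nor did the run from Dlx4 to Dlx5. In wild type H3K27ac only Gad2 stood apart from its neighbour. No neighbours in the RNA-Pol2 order of the wild type, from Dlx2 at 79 reads down to Dlx4 at 27, were apart. Only adjacent ranks were compared in these orders, so genes further apart can differ. Dlx1 and Dlx2, for example, were apart in wild type RNA-Pol2 (-1.09, interval -1.70 to -0.51). Across the 9 genes the log2 levels of wild type Eed and H3K27me3 had a Pearson r of 0.83, which fell to 0.04 over the 8 genes without Gad1, so that value rests on the Gad1 window.

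Set against its control and the median promoter, H3K27me3 was at least 2-fold higher at 8 of 9 members, with 19.1% of all tested promoters as high. The 8 values ran from 4.24 at Gad2 to 5.90 at Dlx3 (relative log2 ratio to IgG), and Gad1 was at 0.41 (interval -0.59 to 1.31). Wild type Eed was at least 2-fold higher than input at the same 8 (28.4% of all promoters), from 1.31 at Gad2 to 3.26 at Dlx2, and Gad1 was at -0.93. Without the shift by the median ratio the Eed count was 4 of 9, and the share of all promoters was not computed for that setting.

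H3K27ac in the wild type was at least 2-fold over IgG at 6 of 9 members (23.3% of all promoters). Dlx5 led at 1.80 (interval 0.97 to 2.95), followed by Dlx2 at 1.61 and Gad2 at 1.58, with Dlx1, Dlx3 and Slc32a1 between 1.08 and 1.19. The lead of Dlx5 rests on its IgG count, 12 reads, the lowest of the members. Its 47 reads of H3K27ac were below those of Gad2, Dlx2, Dlx1 and Slc32a1. The same IgG count enters its RNA-Pol2 ratio. Dlx6 was at 0.90, Gad1 at 0.46 and Dlx4 at -0.65 (interval -1.49 to 0.05). RNA-Pol2 was at least 2-fold over IgG at 3 of 9 (15.3% of all promoters): Dlx5 at 1.78, Dlx2 at 1.55 and Dlx6 at 1.28. It was 2-fold lower than IgG at Dlx4 alone (-1.05, interval -1.89 to -0.38), as at 7.34% of all promoters, where IgG was highest among the members. The 3 genes with RNA-Pol2 past 2-fold are forebrain Dlx genes, whereas Dlx1, read in a window short of its RefSeq start, was at 0.16. In RNA-Pol2 reads, however, Dlx5 (67) was not apart from Slc32a1 (63), whose IgG count was 22, and Gad2 had 61. For H3K27ac, 3 of 9 remained past 2-fold without the shift by the median ratio, a setting without a computed share of all promoters.

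**Figure D2:**
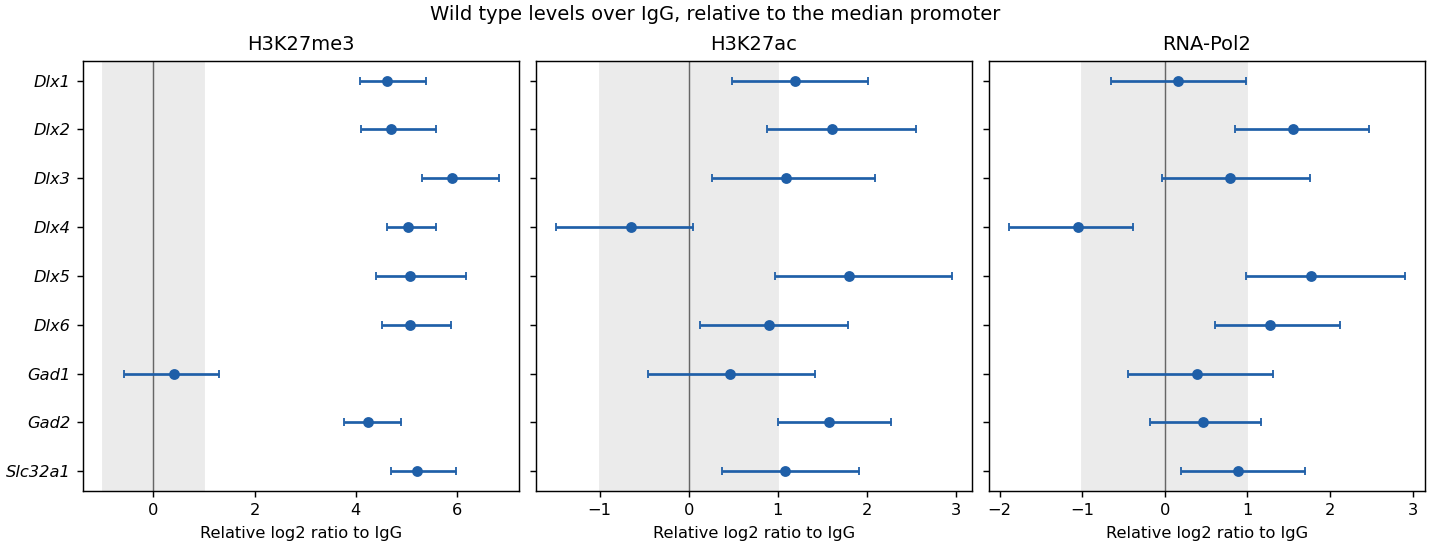
Relative log2 ratio of wild type H3K27me3, H3K27ac and RNA-Pol2 to IgG at each of the 9 genes (points, exact 95% counting intervals); the grey band spans less than 2-fold and the scales of the 3 panels differ. H3K27me3 is high at 8 genes, while RNA-Pol2 passes 2-fold at Dlx2, Dlx5 and Dlx6 and is lowest at Dlx4.

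In EedcKO, Eed was closer to input at most of the 9 genes than in the wild type. Eed was at least 2-fold lower than in the wild type at 6 of 9 members, but 30.0% of all promoters were also that much lower and 22.6% that much higher. The largest differences were at Dlx2, with 177 reads in the wild type and 38 in EedcKO (relative log2 ratio -2.61, interval -3.20 to -2.14), and Dlx6, with 183 and 48 (-2.34, interval -2.85 to -1.90). Slc32a1 followed with 134 and 61 reads (-1.55, interval -2.03 to -1.12). Dlx4 had 93 and 50 reads (-1.32), Dlx3 80 and 46 (-1.22), and Dlx1 92 and 53 (-1.22, interval -1.74 to -0.72). Dlx5, with 70 and 53 reads, was at -0.83 (interval -1.38 to -0.30) and did not reach 2-fold. Gad2, with 46 and 68 reads, was at 0.10, and Gad1, with 9 and 25, at 0.84 (interval -0.11 to 2.33). The Gad1os window had 162 and 64 reads (-1.76, interval -2.21 to -1.35).

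The members differed less from each other in EedcKO Eed than in the wild type. The 9 counts ran from 25 to 68 reads in EedcKO and from 9 to 183 in the wild type. No neighbours in the EedcKO order were apart beyond counting error, but that compares adjacent ranks only. Gad1 and Gad2, the ends of that order, were apart (log2 ratio of Gad1 to Gad2 -1.44, interval -2.17 to -0.76). Eed in EedcKO was still at least 2-fold over input at Dlx5 (1.19), Slc32a1 (1.13) and Gad2 (1.01), 3 of 9 members with 5.16% of all promoters that high. The median ratio of EedcKO to wild type Eed over all promoters was 0.88 before the shift, and the count of lower members rests on it: without the shift it was 2 of 9, Dlx2 at -1.73 and Dlx6 at -1.46, with Gad1 higher at 1.72, and 14.7% of all promoters were then lower and 47.2% higher. With each genotype's input subtracted, 3 of the 8 members that had a value were lower and 2 higher, where 42.9% of 21531 promoters were lower and 46.4% higher. Dlx5 turned direction under both settings, to 0.04 without the shift and to 1.11 with input subtracted. Input itself differed by less than 2-fold between the genotypes at all 9 genes, while 2.50% of all promoters were lower and 3.33% higher.

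As labelled, H3K27me3 was at least 2-fold lower in EedcKO at 8 of 9 members, where 13.0% of all promoters were. It was 2-fold higher at 0 of 9 (6.81% of all promoters). Dlx4 went from 1443 reads to 18 (relative log2 ratio -6.14, interval -7.03 to -5.61). Dlx3 went from 1130 to 41 (-4.68), Slc32a1 from 946 to 38 (-4.53), Gad2 from 626 to 30 (-4.26) and Dlx6 from 779 to 41 (-4.14). Dlx2 went from 516 to 37 (-3.69), Dlx1 from 626 to 58 (-3.34) and Dlx5 from 486 to 47 (-3.27). Gad1, with 25 and 33 reads, was at 0.35 (interval -0.34 to 1.27), and Gad1os went from 1063 to 47 (-4.40). In the library labelled EedcKO H3K27me3 no member reached 2-fold over IgG, with 7.78% of all promoters that high, and Dlx4 was below IgG (18 against 44 reads, -1.22), as were 6.83% of all promoters.

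As labelled, H3K27ac was at least 2-fold higher in EedcKO at the same 8 members, where 18.2% of all promoters were, and lower at 0 of 9 (11.7%). The relative log2 ratio was 6.24 at Dlx4 (25 and 1847 reads), 5.43 at Dlx3 (37 and 1522), 4.80 at Slc32a1 (50 and 1318) and 4.71 at Dlx6 (40 and 994). It was 3.94 at Dlx1 (54 and 779 reads), 3.91 at Dlx5 (47 and 665), 3.85 at Dlx2 (57 and 771) and 3.19 at Gad2 (93 and 783). Gad1 was at 0.56 with 26 and 34 reads. The gene with the most H3K27me3 in the wild type, Dlx4, thus had the highest count in the library labelled EedcKO H3K27ac, and the order of the 9 genes by count was nearly that of wild type H3K27me3 (Spearman rho 0.996).

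**Figure D3:**
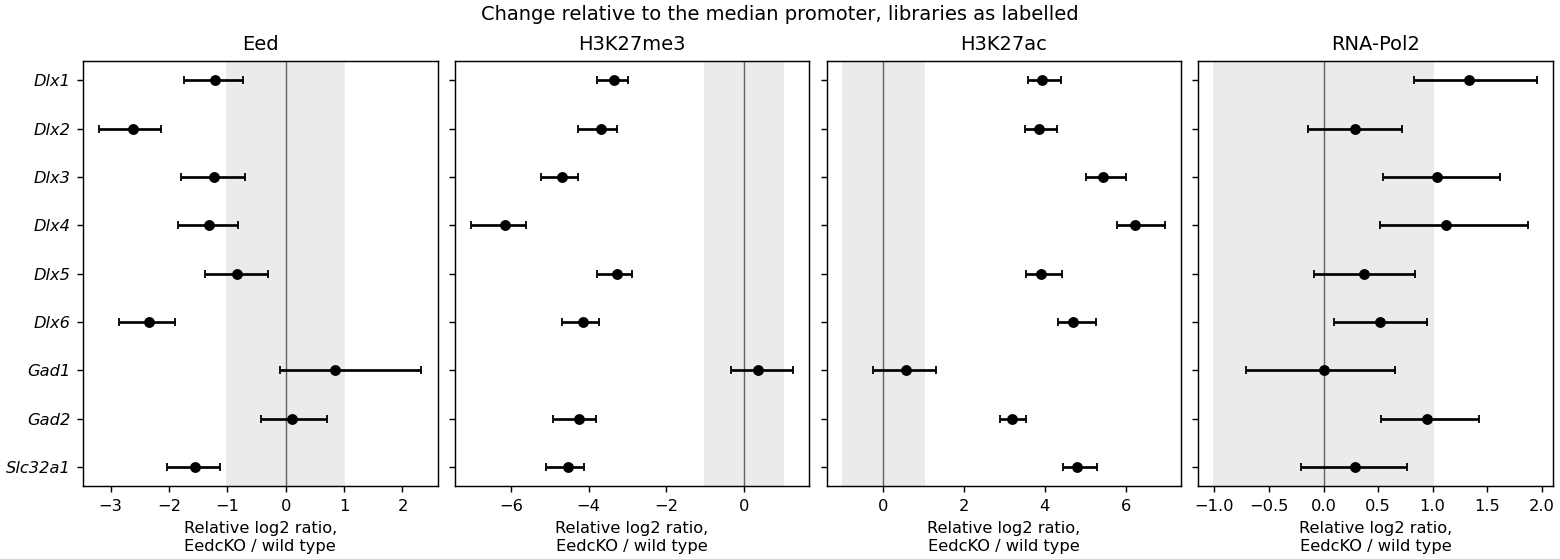
Relative log2 ratio of EedcKO to wild type at each of the 9 genes for the 4 targets, libraries as labelled (points, exact 95% counting intervals); the grey band spans less than 2-fold and the scales of the panels differ. H3K27me3 and H3K27ac move in opposite directions by similar amounts at 8 genes, with Gad1 inside the band in both.

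The crossed comparison did not show these differences. The library labelled EedcKO H3K27ac against wild type H3K27me3 gave relative log2 ratios from 0.41 at Dlx1 to 0.67 at Dlx2, and 0 of 9 members reached 2-fold in either direction, where 4.49% of all promoters were lower and 2.55% higher. The values were all on the same side of 0, and the interval lay above 0 for 8 members, all but Gad1. The library labelled EedcKO H3K27me3 against wild type H3K27ac had 8 of 9 members within 2-fold, from -0.52 at Dlx2 to 0.40 at Gad1, and 8 intervals held 0. Gad2 alone was lower, with 93 reads in wild type H3K27ac and 30 in the other library (-1.49, interval -2.19 to -0.94), where 6.18% of all promoters were lower and 13.0% higher. Gad2 was also the member with the most wild type H3K27ac, which is the denominator of this ratio, so the 2 facts are not independent. In the crossed reading 0 of the 6 Dlx genes passed 2-fold in either mark.

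RNA-Pol2 was at least 2-fold higher in EedcKO at 3 members and 2-fold lower at 0. The labels of the RNA-Pol2 libraries have no separate check here. The Dlx1 window, which ends before the RefSeq start of Dlx1, had 37 reads in the wild type and 112 in EedcKO (relative log2 ratio 1.33, interval 0.83 to 1.96). Dlx4 had 27 and 71 (1.12, interval 0.52 to 1.87) and Dlx3 had 43 and 105 (1.04, interval 0.54 to 1.62). These 3 of 9 were the members past 2-fold, where 12.2% of all promoters did and 7.86% were that much lower. Gad2, with 61 and 139 reads, was just inside 2-fold at 0.95 (interval 0.52 to 1.43), and Dlx6, with 76 and 127, was at 0.52 (interval 0.10 to 0.95). The intervals of Dlx5 (67 and 101 reads, 0.37), Dlx2 (79 and 112, 0.29), Slc32a1 (63 and 89, 0.28) and Gad1 (36 and 41, 0.00) held 0.

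The genes past 2-fold in this comparison were not those with the most wild type RNA-Pol2. The wild type count is the denominator of the ratio, so a low count there favours a high ratio. The contrast is therefore not a separate result. Dlx3 and Dlx4, with the most wild type H3K27me3, were among the 3 past 2-fold, while Dlx2, Dlx5 and Dlx6, with the most wild type RNA-Pol2 reads, were not. Within the Dlx1/2 pair the wild type excess at Dlx2 was not seen in EedcKO, where both had 112 reads (log2 ratio interval -0.39 to 0.39). The windows of this pair cover unlike positions: that of Dlx1 ends before its RefSeq start, while that of Dlx2 is centred on its own. The EedcKO counts at Dlx4, 71 reads against 44 in IgG, gave a relative log2 ratio to IgG of 0.05. At 6 of 9 members EedcKO RNA-Pol2 was at least 2-fold over IgG (23.4% of all promoters), led by Dlx6 at 1.87 and Gad2 at 1.47. IgG itself was higher in EedcKO at Dlx5 (12 and 31 reads, 1.17), where 7.33% of all promoters were, 2-fold lower at 0 of 9 (6.77%), and at 0.80 and 0.84 at Dlx2 and Dlx3. The part of IgG in the RNA-Pol2 ratios was tested only by subtraction, after which 7 members had a value, without Dlx4 and Gad1. Of these 2 were higher and 3 lower, where 20.5% of all promoters were higher and 28.5% lower, and Dlx3 was at -0.21. Without the shift by the median ratio (-0.41 over all promoters) 0 of 9 were higher, where 2.42% of all promoters were, and Dlx1 was at 0.92.

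The authors' summits, single positions from a peak caller with a score on the −log10 scale, placed the marks along each locus. The 3 pairs have window centres 18.6 kb (Dlx1/2), 26.1 kb (Dlx3/4) and 18.8 kb (Dlx5/6) apart. Wild type Eed had 7 summits within 10 kb of the Dlx1/2 centres or between them, 8 at Dlx3/4 and 10 at Dlx5/6, against 3, 5 and 6 in EedcKO Eed. A wild type Eed summit lay in the window of 7 of 9 members (29.1% of all promoters) and an EedcKO Eed summit in that of 4 (9.41%). The whole lists hold 61019 summits in wild type Eed and 39351 in EedcKO Eed, and the part of list length in these numbers was not tested. Scores were called separately in each list (median 10.3 in wild type Eed and 3.61 in EedcKO Eed). At Dlx1/2 the best wild type Eed summits scored 82.0 near Dlx1 and 74.1 inside the pair, and the 3 EedcKO Eed summits scored 2.44 to 2.64. These scores describe each list and are not compared between them.

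The main H3K27me3 summits lay both inside the pairs and near window centres. At Dlx1/2 the main wild type summit (score 139) lay between the genes, 7134 bp into the locus from the Dlx2 start, at percentile 96.5 of the scores in its list. At Dlx5/6 the 2 main summits, with scores 190 and 141, lay 7672 bp inside from the Dlx5 centre and 432 bp from the Dlx6 centre. At Dlx3/4 they lay 386 bp from the Dlx3 centre (score 221) and 4260 bp inside from the Dlx4 centre (score 196). Only Dlx3, Dlx6 and Gad2 had a wild type H3K27me3 summit in their own window, 3 of 9 where 6.40% of all promoters had one. The Gad1 start had a wild type H3K27me3 summit 1462 bp downstream (score 158) and an Eed summit 593 bp downstream, both far outside the Gad1 window.

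The summit lists of the libraries with uncertain labels were compared as well. Of 19 wild type H3K27me3 summits at the member loci, 13 had a summit of the library labelled EedcKO H3K27ac within 1 kb, where 64.1% of all wild type H3K27me3 summits had. Such matches were thus not particular to the member loci. Among the main wild type summits of the pairs, those at Dlx1/2, Dlx4 and Dlx6 were matched, at 185, 983 and 487 bp. The summits at Dlx3 (score 221) and inside Dlx5/6 (score 190) were not, at 1482 and 4427 bp. At Dlx2 a summit of each library lay 1 bp apart, 5474 bp upstream of the start. At Slc32a1 a 1 bp match at -5023 bp from the centre joined weaker summits, at percentiles 42.8 (wild type) and 11.7 of their lists. The library labelled EedcKO H3K27me3 had 0 summits at any of the 6 loci, and 1.18% of all promoters held one. The library labelled EedcKO H3K27ac had a summit in the windows of Dlx6 and Gad2 (2 of 9, 5.92% of all promoters). Wild type H3K27ac had a summit in the windows of Dlx5 and Gad2 alone (2 of 9, 10.3% of all promoters), with scores of 3.87 and 3.13, at percentile 24.1 of the list or below.

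RNA-Pol2 summits were nearly all from EedcKO. Wild type RNA-Pol2 had 1 summit at the 6 loci, 388 bp downstream of the Dlx1 RefSeq start, and 0 in a member window (4.92% of all promoters). EedcKO RNA-Pol2 had a summit in the windows of Dlx2, Dlx3, Dlx5, Dlx6 and Gad2, 5 of 9 where 19.7% of all promoters had one, and a summit 109 bp upstream of the Dlx1 start (score 9.88). The summits in the windows of Dlx2, Dlx3 and Dlx5 lay 121 to 126 bp downstream of the window centres. The 2 RNA-Pol2 lists differ in length, 3716 summits in the wild type and 25930 in EedcKO, and in reads, 2482297 and 3842779 in promoter windows, and their part in these numbers was not tested.

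**Figure D4:**
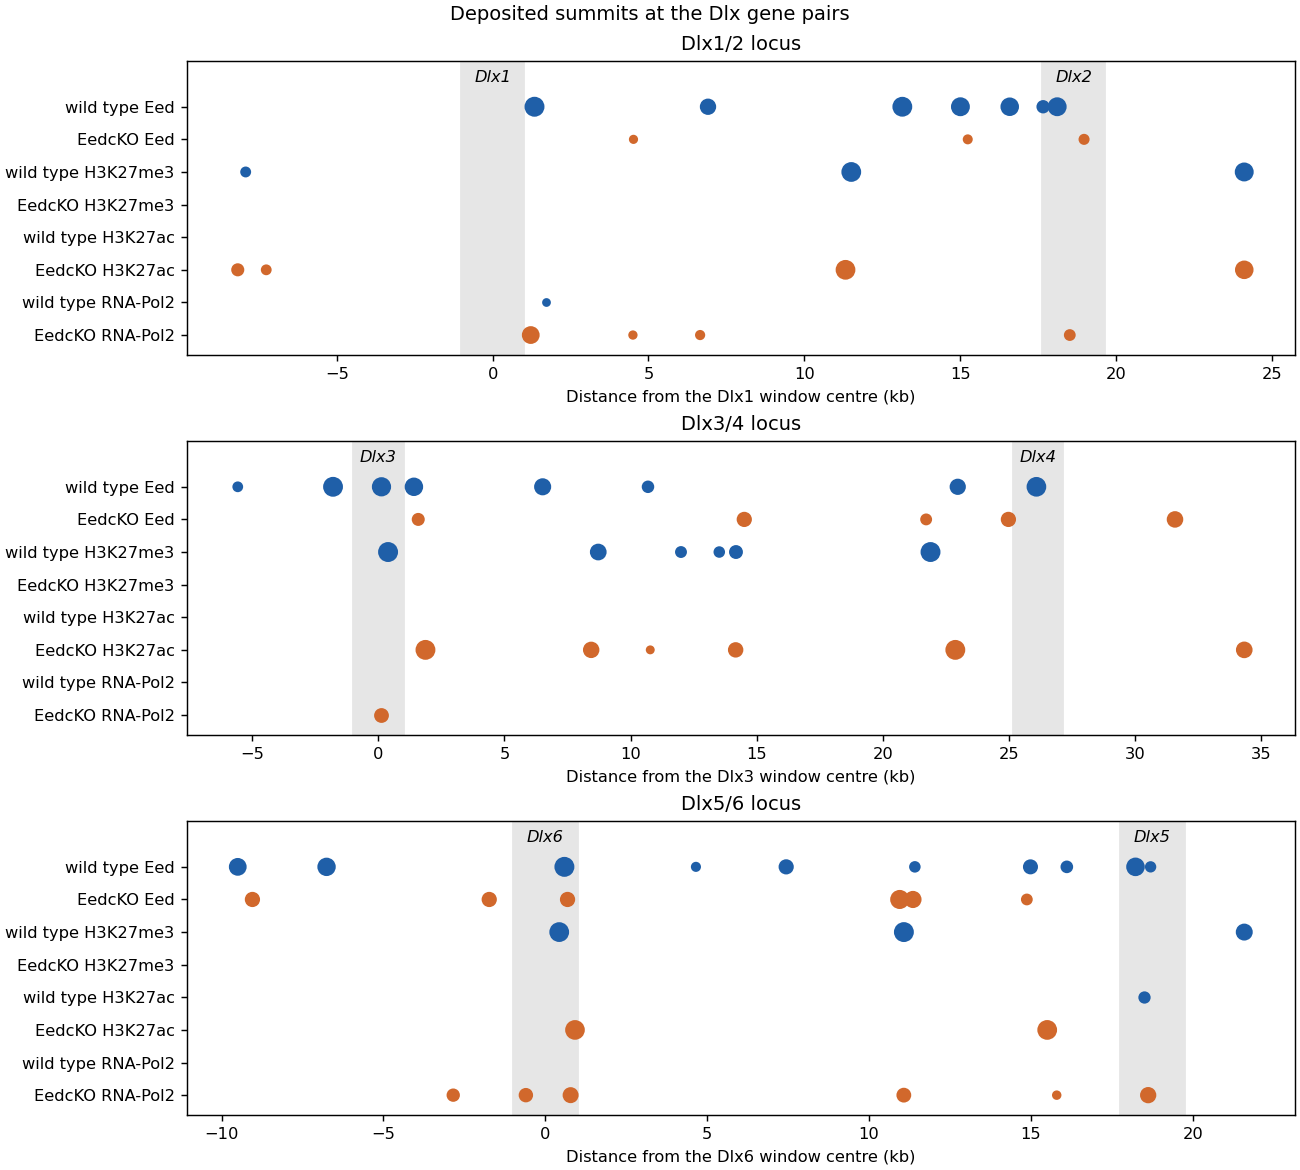
Summits at the 3 Dlx pairs by distance in kb from the centre of the left gene's window (rows are libraries as labelled, blue for wild type and orange for EedcKO; a larger point has a higher percentile of score in its own list; grey marks the 2 kb windows). Wild type H3K27me3 and the library labelled EedcKO H3K27ac share their main summits near the middle of Dlx1/2, and the row labelled EedcKO H3K27me3 is empty.

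The nearest other protein-coding genes on each side of the 6 loci, 14.1 to 394.7 kb away, had 26 to 86 reads in wild type H3K27me3, with the exception of Itga3 (336 reads), 43.3 kb from Dlx3. The Gad1 window, which does not hold the RefSeq start of Gad1, had 25 reads and was below all of these neighbours. The Gad1os window, next to that start, had 1063 reads, and the other 8 members had 486 to 1443. Among transcripts inside the loci, Dlx1as had 508 reads, Dlx6os1 502, Dlx6os2 1098 and Dlx4os 1599. The Dlx4os window shares 789 bp with that of Dlx4 and Dlx6os2 shares 184 bp with Dlx6, so some reads count for both genes. The Slc32a1 window shares 1956 bp with the gene model Gm14204, and the assay does not separate strands.

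The members resembled each other over the 12 libraries. The Pearson r of log2(RPKM + 0.5) between pairs of the 8 genes other than Gad1 ran from 0.83 (Dlx2 and Gad2) to 0.98 (Dlx1 and Dlx3). The Gad1 window, which does not hold the Gad1 start, was negative with all 8, from -0.70 to -0.43. Dlx1 was more like Dlx3 (0.98) than like its pair partner Dlx2 (0.92), and Dlx2 was more like Dlx6 (0.98). These values share the libraries, and the same 2 libraries hold the highest counts of all 8 genes. Among 19257 other coding genes, the pattern most like each member's was that of Dgka for Dlx1 (0.990), Sox21 for Dlx2 (0.990), Osr2 for Dlx3 (0.992), Galr2 for Dlx4 (0.991), Fgf15 for Dlx5 (0.983) and Hic1 for Dlx6 (0.988). For Gad2 it was Gfra1 (0.978), for Slc32a1 Prdm6 (0.995) and for the Gad1 window Apol11b (0.958). The second in rank was Rasgrf1 for both Dlx1 and Dlx3.

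All 11 regulators known to act upstream of the Dlx genes in the ventral forebrain were at least 2-fold over IgG in wild type H3K27me3, against 19.1% of all promoters. The highest counts were at Nkx6-2 (1548), Nkx2-1 (1342) and Gsx1 (1287), homeobox genes of ventral progenitors. In H3K27ac 2 of the 11 were 2-fold over IgG, where 23.3% of all promoters were. As labelled, all 11 were 2-fold lower in EedcKO H3K27me3 (median -4.89), where 13.0% of all promoters were. In the crossed comparison, the library labelled EedcKO H3K27ac against wild type H3K27me3, 0 of 11 passed 2-fold (median 0.68). Of all promoters 4.49% were lower and 2.55% higher there, and Gsx1 had 1287 and 2068 reads. In Eed 8 were lower in EedcKO (median -1.62), where 30.0% of all promoters were. In RNA-Pol2 0 of 11 passed 2-fold (median 0.69), where 12.2% of all promoters were higher and 7.86% lower.

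Of 25 regulators that act downstream of Dlx in interneurons and the striatum, 23 were 2-fold over IgG in wild type H3K27me3 and 14 in H3K27ac. Of all promoters 19.1% and 23.3% were. Gbx2 (1685 reads), Lhx6 (1231) and Zfp503 (983) had the most H3K27me3, and Foxp2 (111), Etv1 (92) and Sox6 (78) had the most H3K27ac. In Eed 15 were 2-fold lower in EedcKO and 4 higher (median -1.67), where 30.0% of all promoters were lower and 22.6% higher, from Gbx1 at -2.81 to Lhx8 at 2.70. In RNA-Pol2 5 were higher and 1 lower (median 0.47), where 12.2% and 7.86% of all promoters were, with Ebf1 highest at 1.62 and Rarb lowest at -1.42.

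Of 11 migration genes, 9 were 2-fold over IgG in H3K27me3 (19.1% of all promoters) and 7 in H3K27ac (23.3%). Cxcl12, a chemokine, had 727 reads of H3K27me3. Epha4, a guidance receptor, was highest in the RNA-Pol2 ratio of EedcKO to wild type (1.32). Of 8 genes for GABA uptake, breakdown and reception, 3 were over IgG in H3K27me3 and 3 in H3K27ac (19.1% and 23.3% of all promoters). Gabbr2, a GABA receptor subunit, had 627 reads of H3K27me3, while its partner Gabbr1 had 52 and had the most H3K27ac of the list (133). The scaffold gene Gphn had the highest RNA-Pol2 ratio of EedcKO to wild type (104 and 379 reads, 1.63). Gad2 and Slc32a1, with 626 and 946 reads of H3K27me3, lay in the range of the Dlx genes, and the median of these 8 genes was 57 reads.

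Of 17 markers of mature GABA neurons, 13 were 2-fold over IgG in H3K27me3, 0 in H3K27ac and 0 in RNA-Pol2. Of all promoters 19.1%, 23.3% and 15.3% were. Ppp1r1b (1102 reads), Npy (816) and Chat (734) had the most H3K27me3. The RNA-Pol2 ratio of EedcKO to wild type at these 17 had a median of -0.15, with 3 at least 2-fold higher, where 12.2% of all promoters were. Of 13 glutamate neuron counterparts, 11 were over IgG in H3K27me3 (19.1% of all promoters) and 7 in H3K27ac (23.3%). Emx1 (1370), Neurog1 (1314) and Pax6 (999) had the most H3K27me3. Emx2, a dorsal homeobox gene, had the largest such ratio of the list, 16 reads in the wild type and 138 in EedcKO (2.72). In that comparison 3 of the 13 were 2-fold higher, where 12.2% of all promoters were, and 0 lower (median 0.75).

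The labelled tissue was checked with marker genes. In the wild type, H3K27ac was 2-fold over IgG at 6 of 8 forebrain and 5 of 6 neuron markers, where 23.3% of all promoters were. It was so at 0 of 7 endothelial and 0 of 8 skin and branchial arch markers. The microglia list had 1 of 7, the mesenchyme list 1 of 7 and the erythroid list 1 of 8. Sox2 had 90 reads of H3K27ac and Tubb3 had 99. In RNA-Pol2, EedcKO was 2-fold higher at 2 of 8 forebrain and 3 of 6 neuron markers, where 12.2% of all promoters were. It was 2-fold higher at 0 of each other list. The neuron markers had a median RNA-Pol2 ratio of 0.88, above the 0.52 of the members. Their summed RNA-Pol2 level was 86.8 RPKM in the wild type and 127 in EedcKO, and that of the 9 members was 98.5 and 117. The part of neuron content in the RNA-Pol2 ratios of the Dlx genes was not tested.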

How the data were processed

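Reads had been aligned and peaks called with Bowtie2 2.4.1 and MACS2 2.2.7.1 on mm10, and deepTools 3.4.0 and ChIPseeker 1.22.1 are also named, per the submitters' processing notes. The deposited promoter tables give a whole-number read count per 2 kb window, not normalized, although their names speak of RPKM. The deposited summit lists give a −log10 score per summit, and whether it is of a p-value or a q-value is not given in the sources used here. In the table of EedcKO H3K27ac, 27 symbols had been changed into dates, so symbols were taken by gene ID from the wild type Eed table. Counts were divided by window length and by the total of all promoter windows (RPKM computed here), with 1 window per symbol, the highest over the 8 antibody libraries (55276 symbols). Ratios used a pseudocount of 0.5 RPKM, a minimum of 1 RPKM for the mean of both libraries, and a shift by the median ratio. With 1 library per group no count model was fitted. Intervals are exact (Clopper-Pearson for ratios, Poisson for counts), and PCR copies are not independent molecules.

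The 9 members and all lists were chosen with earlier results of these data known. Genes outside the members were named by rule: in each list the 3 with the most wild type H3K27me3, the 3 with the most H3K27ac and the extremes of each ratio, and for each member the 2 genes with the highest r over the 12 libraries. Itga3 and the transcripts inside the loci were named for their position. Scripts ran in Python 3.11.15 with numpy 2.4.6, pandas 2.3.3, scipy 1.17.1 and matplotlib 3.10.9, and the ratio step was tested on simulated data. Other pseudocounts, no filter, no shift, control subtraction and the crossed libraries were tried.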

Additional observations from a re-analysis of the deposited data

How the results depend on the processing

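No paired analysis was possible because each genotype and target has 1 library. Of 24 counts of members, 7 stayed within 1.5 times of the reported count under every alternative tried. Without the shift by the median ratio, Eed was lower in EedcKO at 2 members and higher at 1 (14.7% and 47.2% of all promoters). H3K27me3 as labelled was then higher at 1 member (41.0% of all promoters) and RNA-Pol2 at 0 (2.42%). Under the same setting 4 members were over input in wild type Eed, 3 over IgG in wild type H3K27ac and 1 in EedcKO RNA-Pol2. With the control subtracted, Eed was lower at 3 and higher at 2 members (42.9% and 46.4% of all promoters), RNA-Pol2 was lower at 3 (28.5%), and the RNA-Pol2 ratio of Dlx3 was -0.21. The median of the 8 members with a value, as labelled, was then -8.54 in H3K27me3 and 8.18 in H3K27ac, against -4.14 and 3.94. With a pseudocount of 2 RPKM, RNA-Pol2 was higher in EedcKO at 1 member (7.83% of all promoters) and over IgG at 2. Without the filter on low values, 3 members were over IgG in EedcKO RNA-Pol2. The share of all promoters over input or IgG was not computed under these altered settings, so those counts have no background.

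With the crossed libraries, H3K27me3 was lower at 0 members. The ratios were then 0.41 for Dlx1, 0.67 for Dlx2, 0.52 for Dlx3, 0.45 for Dlx4, 0.54 for Dlx5, 0.44 for Dlx6, 0.41 for Gad2 and 0.57 for Slc32a1, with a median of 0.51. H3K27ac was then higher at 0 members and lower at 1, where 13.0% and 6.18% of all promoters were. The median of the members was 0.08, the highest value was 0.40, and 8 of 9 intervals held 0. The values below 0 were -0.52 for Dlx2, -0.36 for Dlx4, -1.49 for Gad2 and -0.30 for Slc32a1, and the other members were above 0. Within 5 kb of the window centre a summit was found for 8 members in EedcKO Eed, 6 in wild type H3K27me3, 7 in the library labelled EedcKO H3K27ac and 1 in wild type RNA-Pol2. With scores at or above the list median, 0 members had a wild type H3K27ac summit in the window and 3 an EedcKO RNA-Pol2 summit. The share of all promoters was not computed at 5 kb or for this score cut, so these summit counts have no background. The cause of the changes under the altered settings was not tested. At the low read numbers of H3K27ac, Eed and RNA-Pol2, differences inside the printed intervals were not detectable at this depth.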
